A study of Rattus norvegicus with 57 samples.

Results

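Genes of cholesterol synthesis and its feedback control were followed in the liver of rats given methapyrilene. The 8 genes were set by symbol and not by their measured values, and each was read from the probe set annotated to its symbol alone, or from the one of highest mean log2 signal where there were several. Of the 8 genes, 7 were measured, among 10725 genes tested on the array, and the other gene is not analysed here. Those measured are 6 enzymes of the pathway (Idi1, Fdps, Sqle, Lss, Cyp51 and Dhcr7) and the sterol sensor Insig1. None of them is an uptake receptor, so uptake is described below through a separate list of genes.

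Methapyrilene is an antihistamine known for its toxicity to rat liver. Male Han Wistar rats, 8 to 10 weeks old, took it by mouth every day at 30 or 80 mg/kg body weight in carboxymethylcellulose, and control rats took that vehicle alone (0 mg/kg). Livers were collected on day 4, day 8 and day 15 of dosing, and on day 24, when the animals had been dosed for 14 days and then left undosed for 10 days. RNA from frozen liver was read on 57 Affymetrix Rat Genome 230 2.0 arrays, 1 animal each, and the values are MAS5 signals, a linear intensity scaled to the same level on every array. All 12 groups of dose and day had 5 arrays, apart from 80 mg/kg on day 4, 30 mg/kg on day 24 and control on day 24, which had 4, out of 6 rats planned per group. Their number limits the precision of every value. Liver was the labelled tissue, and 9 of 10 hepatocyte markers were measured, with a summed signal of 30199 to 64335 over all arrays. Of 5 markers of steroid-making cells, which also build sterols, 1 passed the filter on low signals: Cyp17a1, with 0.90 ± 0.34 log2 against control on day 4 and 1.26 ± 0.32 on day 15 at 80 mg/kg. Its part in the results was not tested.

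Animal cells build cholesterol from acetyl-CoA by way of mevalonate, isopentenyl and farnesyl diphosphate, squalene and lanosterol, and the liver is one of the main sites. When sterols run low in the endoplasmic reticulum, the transcription factor SREBP-2 is carried to the Golgi, cut by proteases and sent to the nucleus, where it switches on most enzymes of the pathway together with receptors for lipoprotein uptake. When sterols are plentiful, INSIG proteins hold the SREBP escort SCAP in the endoplasmic reticulum and the genes quieten. The liver also takes up lipoproteins and disposes of cholesterol in bile, directly or as bile acids.

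Promoters of 4 members that differ in their CCAAT boxes are shown first, because SREBP-2 is known to act with the factors that bind CCAAT and GC boxes. Sequences are those of RefSeq on build GRCr8, from 250 bases before the annotated start to 50 after it, and 6 of the 7 measured members were matched, all but Sqle. Shown are Fdps (chr2:176804767-176805066, minus strand) and Idi1 (chr17:66547475-66547774, minus strand), each with a pair of CCAAT boxes, Insig1 (chr4:8057720-8058019, minus strand) with 1, and Dhcr7 (chr1:208444184-208444483, plus strand) with none. Of the members not shown, Lss has 1 and Cyp51 none. Capitals mark CCAAT on the strand of the gene or its reverse complement.
Fdps: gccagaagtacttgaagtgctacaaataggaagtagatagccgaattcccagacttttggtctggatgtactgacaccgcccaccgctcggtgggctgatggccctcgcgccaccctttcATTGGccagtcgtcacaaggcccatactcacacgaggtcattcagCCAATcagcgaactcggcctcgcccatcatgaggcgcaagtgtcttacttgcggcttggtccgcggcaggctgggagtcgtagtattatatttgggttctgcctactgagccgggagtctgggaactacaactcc
Idi1: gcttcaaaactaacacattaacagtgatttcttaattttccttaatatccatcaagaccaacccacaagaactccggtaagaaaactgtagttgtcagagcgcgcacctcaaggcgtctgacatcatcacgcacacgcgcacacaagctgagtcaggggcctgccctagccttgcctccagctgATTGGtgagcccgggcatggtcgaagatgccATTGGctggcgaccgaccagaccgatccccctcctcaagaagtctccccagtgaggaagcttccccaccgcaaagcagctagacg
Insig1: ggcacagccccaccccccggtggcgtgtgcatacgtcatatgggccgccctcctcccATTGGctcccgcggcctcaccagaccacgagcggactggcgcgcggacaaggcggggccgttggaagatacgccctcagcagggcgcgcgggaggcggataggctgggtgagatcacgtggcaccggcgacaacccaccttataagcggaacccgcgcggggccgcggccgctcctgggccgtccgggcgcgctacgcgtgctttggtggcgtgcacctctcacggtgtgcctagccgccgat
Dhcr7: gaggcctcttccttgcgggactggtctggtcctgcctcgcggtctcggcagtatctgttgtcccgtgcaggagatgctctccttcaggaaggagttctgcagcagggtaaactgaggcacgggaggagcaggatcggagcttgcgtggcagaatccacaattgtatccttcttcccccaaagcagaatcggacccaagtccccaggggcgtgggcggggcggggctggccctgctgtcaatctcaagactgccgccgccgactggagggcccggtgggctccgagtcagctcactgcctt
CCAAT was found in 4 of the 6 member promoters, those of Fdps, Idi1, Insig1 and Lss, and in 37.5% of the 33469 promoters in the table. GGGCGG, the core of a GC box bound by Sp1, was in 5 of 6, all but Idi1, against 33.1% of all promoters. The E-box letters CANNTG were in 5 of 6, against 72.1%. TCACNCCAC, a strict form of the sterol regulatory element, was in 0 of 6 and in 1.12% of all promoters. Other forms of the element were not searched, so its absence from these windows is not shown. All motifs were searched on both strands, and matches of different motifs did not overlap in the member promoters. Each match describes these windows of 300 bases only.

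At 80 mg/kg the members split. Sqle and Fdps were higher than in control livers on day 4 and day 15, Dhcr7 was lower on day 8 and day 15, and no member passed the test on day 24, after the pause in dosing. At 30 mg/kg no member passed on any day. Changes are log2 fold changes ± standard error from limma, with p adjusted by Benjamini-Hochberg over all genes of a comparison, and a gene passed when the adjusted p was under 0.05. On day 4, 2 of 7 members passed at 80 mg/kg, or 28.6%, beside 27.5% of all genes. On day 8 it was 1 of 7, beside 50.8%, and on day 15 it was 3 of 7, or 42.9%, beside 59.2%. On day 24 it was 0 of 7, with 1 at an unadjusted p under 0.05, beside 10.2%. These shares are close to that of the array on day 4 and no higher than it afterwards, so the results below concern single genes and not the members as a set. Their median change was 0.14 on day 4, beside 0.08 over all genes, -0.17 beside 0.15 on day 8, -0.24 beside 0.16 on day 15 and -0.05 beside 0.04 on day 24. All comparisons of a day share its control livers.

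**Figure D1:**
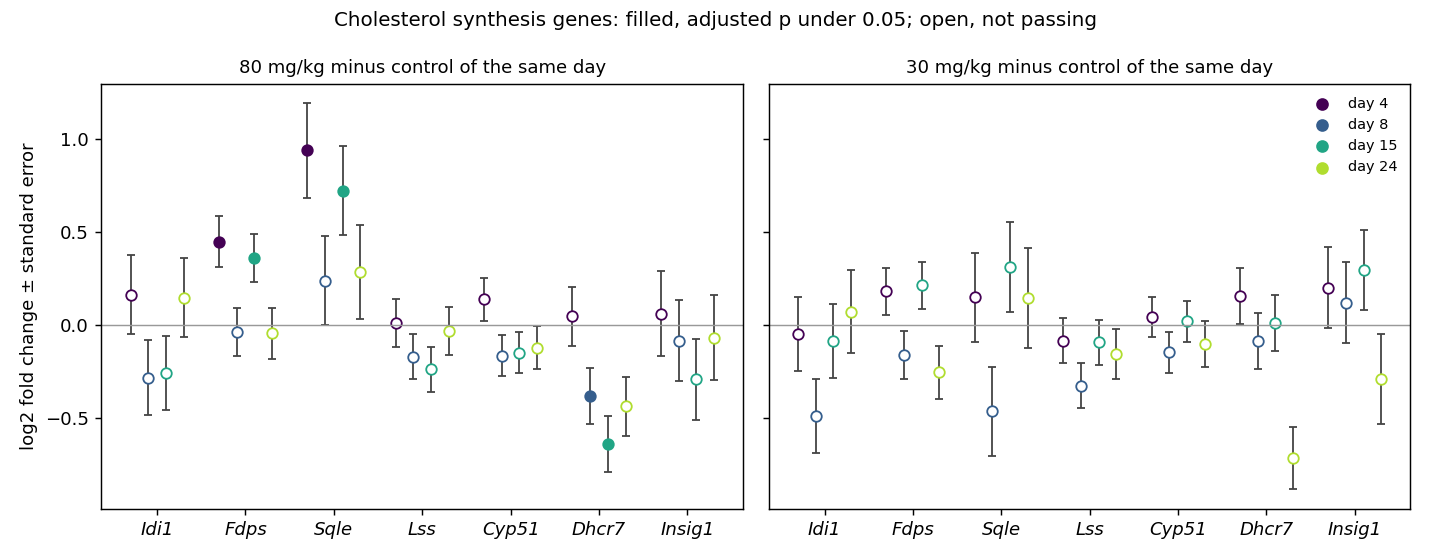
Log2 fold change ± standard error of each measured member (x axis, in the order of the pathway, Insig1 last) at 80 mg/kg (left) and 30 mg/kg (right) against control of the same day, with days as colours. Filled points, which have an adjusted p under 0.05, are Sqle and Fdps above 0 on day 4 and day 15 and Dhcr7 below 0 on day 8 and day 15, all at 80 mg/kg, and all points at 30 mg/kg are open.

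Idi1 and Fdps act before squalene. Idi1 (probe set 1368878_at) turns isopentenyl diphosphate into dimethylallyl diphosphate. From its main probe set it did not pass in any comparison of doses in the main fit, with all 12 groups and signals as deposited. At 80 mg/kg against control it passed on day 8 with arrays shifted to a common median (-0.50, adjusted p = 0.0403). With only the groups compared it passed on day 15 (adjusted p = 0.0373). Its mean signal on day 15 was 791 ± 75.9 at 80 mg/kg and 951 ± 135 in control livers (SD, n = 5 each), a difference of -0.26 ± 0.20 log2 with an adjusted p of 0.269, and its 95% interval ran from -0.66 to 0.14. A second, dimmer probe set of the gene gave -0.58 ± 0.25 in the same comparison, with an adjusted p of 0.0498, so the probe sets differ on which side of the threshold Idi1 lies. Against 30 mg/kg on day 15 the second probe set gave -0.67 ± 0.25 (adjusted p = 0.0247), where the main one gave -0.17 ± 0.20.

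Fdps (probe set 1367667_at) makes farnesyl diphosphate, from which sterols, dolichol, ubiquinone and protein prenyl groups all branch. On day 4 its signal was 2890.5, 3977, 3137 and 3345 at 80 mg/kg, against 2436, 2021, 2336, 3096 and 2365 in control livers. All 4 treated livers lay above the control mean and 3 above every control, while 1 control liver reached into the treated range. Fdps was higher by 0.45 ± 0.14 log2, a ratio of 1.37 (adjusted p = 0.0101). On day 15 the signals were 3190.4, 3572, 4551, 4215 and 3602 at 80 mg/kg, against 3271, 3003, 2835, 2955 and 2739 in control livers, again with 1 overlapping pair. The difference was 0.36 ± 0.13 (adjusted p = 0.0135). Both calls are lost when arrays are shifted to a common median, where the difference was 0.32 (adjusted p = 0.128) on day 4 and 0.22 (adjusted p = 0.185) on day 15, and without 80 mg/kg replicate 3 (adjusted p = 0.0633 on day 4 and 0.0557 on day 15). On day 8, between these days, Fdps averaged 3305 ± 663 at 80 mg/kg and 3346 ± 238 in control livers (SD, n = 5 each), and the difference of -0.04 ± 0.13 did not pass (adjusted p = 0.824).

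Sqle (probe set 1387017_at), squalene epoxidase, carries out the first oxygen-using step of the sterol branch and is regarded as a control point of the pathway. On day 4 its signal was 221, 386, 249 and 291 at 80 mg/kg, against 149.9, 94.3, 136, 228 and 153 in control livers. Of the 4 treated livers, 3 lay above every control, and the lowest of them lay just under the highest control. Sqle rose 1.92-fold, or 0.94 ± 0.26 log2 (adjusted p = 0.00419), the largest change among the members in any comparison with control. On day 15 the signals were 337, 370.2, 334, 361 and 297 at 80 mg/kg, against 186, 298, 193, 194 and 175 in control livers. The treated livers were close together, and the groups met only because control replicate 2 stood far above the other controls. The rise was 0.72 ± 0.24 (adjusted p = 0.00852). The calls for Sqle on day 4 and day 15 held under every alternative processing tried and without any single array.

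On day 8 Sqle did not pass against control. Its signal was 309, 518, 456, 241 and 262 at 80 mg/kg, against 435, 278, 219.7, 234 and 324 in control livers. The ranges overlapped widely, with the control livers of that day on average brighter than those of other days, and the difference was 0.24 ± 0.24 (adjusted p = 0.427). Livers at 30 mg/kg on day 8 read 211, 165, 272, 201 and 210, and 80 mg/kg was higher than 30 mg/kg by 0.71 ± 0.24 (adjusted p = 0.0141), where 1 of 7 members and 46.1% of all genes passed. On day 4 the 4 livers at 80 mg/kg all lay above the 5 at 30 mg/kg, which ran from 138 to 199, as 10.3% of all genes did in that direction. The difference between the doses was 0.79 ± 0.26 (adjusted p = 0.0216), with 1 of 7 members passing beside 20.1% of all genes. Both calls between the doses are lost when arrays are shifted to a common median (adjusted p = 0.066 on day 4 and 0.096 on day 8), and without 30 mg/kg replicate 3, 80 mg/kg replicate 3 or 80 mg/kg replicate 5 on day 4 (up to 0.102) or without 80 mg/kg replicate 2 or 3 on day 8 (up to 0.0673).

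**Figure D2:**
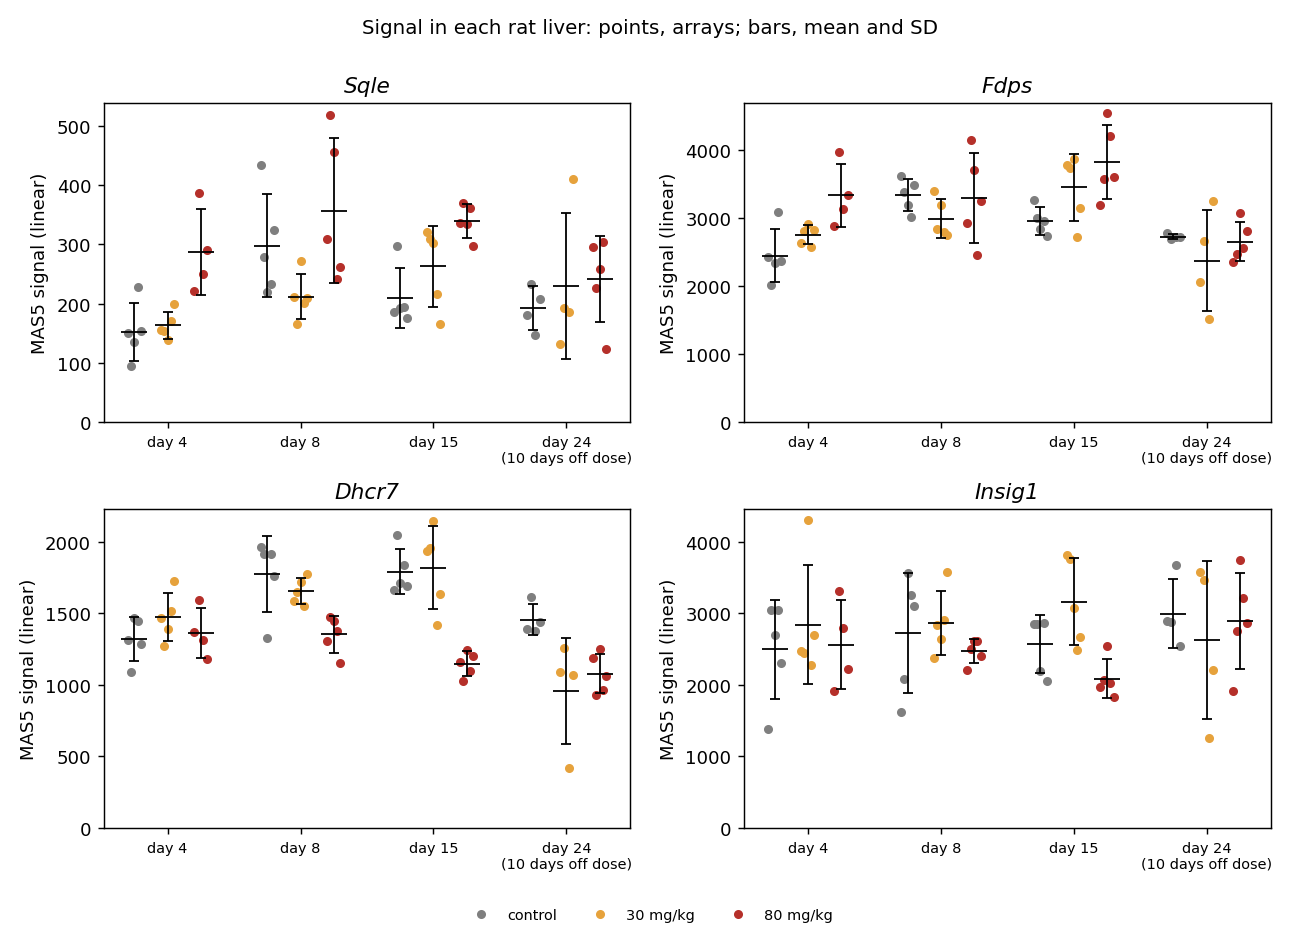
MAS5 signal (y axis, linear, from 0) of Sqle, Fdps, Dhcr7 and Insig1 in each liver by day, with control, 30 mg/kg and 80 mg/kg side by side; points are arrays and bars the mean and SD. On day 15 the 5 livers at 80 mg/kg lie from 1028 to 1245 for Dhcr7, below all control livers, and from 297 to 370.2 for Sqle, above all control livers but 1.

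Lss closes epoxidised squalene into lanosterol, and Cyp51 removes a methyl group from lanosterol. In the main fit neither passed in any comparison of doses from its main probe set (Lss 1372973_at, Cyp51 1367979_s_at). On day 15 Lss read 169, 152, 152, 172 and 164 at 80 mg/kg, against 176, 247, 191, 177 and 174 in control livers. Every treated liver lay below every control liver, yet the gap was narrow, and the difference of -0.24 ± 0.12 had an adjusted p of 0.0866. With Dhcr7, 2 of the 7 members showed such a separation downward on day 15, beside 14.6% of all genes. Lss passed on that day after quantile normalization, at -0.40, and with arrays shifted to a common median, at -0.38. At a common median it passed on day 8 too (-0.39, adjusted p = 0.011). A second probe set of Lss, far dimmer at a mean signal of 9.94, gave -0.17 ± 0.66 on day 15 (adjusted p = 0.85). Cyp51 averaged 2153 ± 169 at 80 mg/kg and 2391 ± 187 in control livers on day 15 (SD, n = 5 each), a difference of -0.15 ± 0.11 (adjusted p = 0.239). A second, dimmer probe set of Cyp51 gave -0.30 ± 0.12 there and passed (adjusted p = 0.0337). With arrays shifted to a common median, the main probe set of Cyp51 passed against control on day 8, day 15 and day 24. Its differences there were -0.39, -0.29 and -0.38 (adjusted p = 0.00861, 0.0455 and 0.0232).

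**Figure D3:**
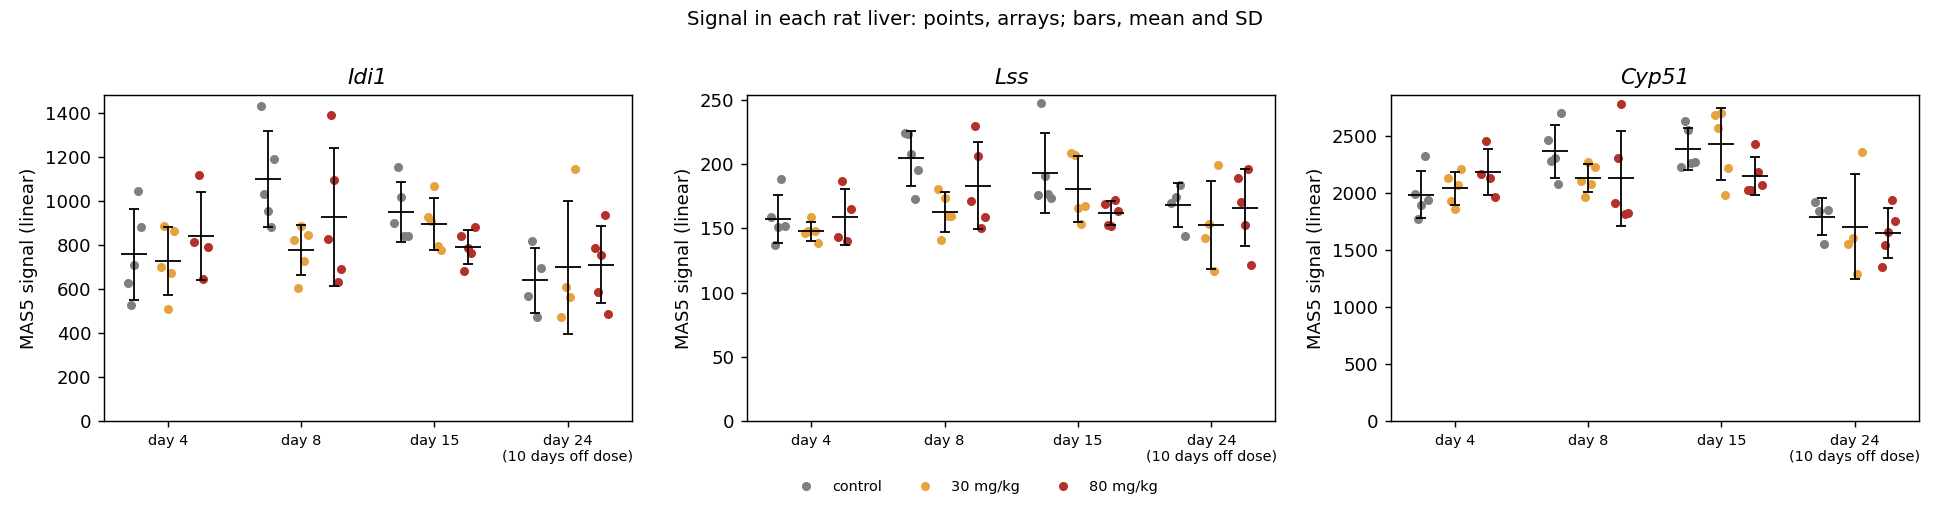
MAS5 signal (y axis, linear, from 0) of Idi1, Lss and Cyp51 in each liver by day, with control, 30 mg/kg and 80 mg/kg side by side; points are arrays and bars the mean and SD. Ranges of the 3 groups overlap for Idi1 and Cyp51 on each day, and for Lss the livers at 80 mg/kg on day 15, at 152 to 172, lie just under the controls, at 174 to 247.

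Dhcr7 (probe set 1368189_at) performs the last step of one arm of the pathway, the reduction of 7-dehydrocholesterol to cholesterol. On day 15 its signal was 1160.2, 1028, 1245, 1098 and 1205 at 80 mg/kg, against 1662, 2048, 1712, 1838 and 1694 in control livers. The groups did not overlap. Dhcr7 fell to 0.64 times the control level, or -0.64 ± 0.15 log2 (adjusted p = 0.000264). Livers given 30 mg/kg read 1935, 1960.3, 2146, 1418 and 1638 on that day, also all above those at 80 mg/kg, as for 13.6% of all genes. The difference between the doses was -0.65 ± 0.15 (adjusted p = 0.000242), and it and Insig1 were the 2 of 7 members that passed there, beside 55.2% of all genes. On day 8 the livers at 80 mg/kg lay below all those at 30 mg/kg as well, as for 9.85% of all genes, though the difference of -0.29 ± 0.15 did not pass (adjusted p = 0.106). The fall against control on day 15 held under every alternative processing tried and without any single array, between -0.78 and -0.42 over the alternatives.

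The difference of Dhcr7 from control changed between days, and part of this lay in the control livers. On day 4, day 8 and day 15 these averaged 1322, 1776 and 1791, and livers at 80 mg/kg 1365, 1354 and 1147. On day 4 Dhcr7 averaged 1365 ± 174 at 80 mg/kg (SD, n = 4) and 1322 ± 153 in control livers (SD, n = 5), a difference of 0.05 ± 0.16 that did not pass (adjusted p = 0.869). The effect on day 15 minus the effect on day 4 was -0.69 ± 0.22 (limma interaction, adjusted p = 0.0168). From main probe sets, Dhcr7 was the 1 of 7 members that passed this test, beside 24.4% of all genes. The second, dimmer probe set of Cyp51 passed it as well, at -0.60 ± 0.17 (adjusted p = 0.0108), where the main one gave -0.29 ± 0.16. The call of Dhcr7 is lost after quantile normalization and with the 3'/5' ratio of the actin control probes, a measure of RNA integrity, as a covariate (adjusted p up to 0.0775). On day 8 the signal was 1308, 1477, 1449.8, 1379 and 1156 at 80 mg/kg, against 1961, 1917, 1325, 1917 and 1758 in control livers. All treated livers lay below the control mean, but the lowest control, replicate 3, lay inside their range. The difference on day 8 was -0.38 ± 0.15 (adjusted p = 0.0308). It is lost after quantile normalization (-0.18, adjusted p = 0.349), with the actin ratio as a covariate, and in 5 of 10 fits that leave out 1 array, namely control replicate 1, 2 or 4 or 80 mg/kg replicate 1 or 5 (adjusted p up to 0.0841).

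Insig1 (probe set 1367894_at) holds the SCAP complex in the endoplasmic reticulum and is itself a target of SREBP-2, so that it is known as both part and readout of the feedback. In the main fit it did not pass against control on any day. With only the groups compared it passed at 80 mg/kg on day 15 (limma, adjusted p = 0.0457). On day 15 its signal was 1964, 2072, 2542, 2025 and 1830.4 at 80 mg/kg, against 3817, 3761, 3081, 2484 and 2675 at 30 mg/kg. Of the 5 livers at the higher dose, 4 lay below every liver at the lower dose. The difference between the doses was -0.59 ± 0.22 (adjusted p = 0.0191). Control livers of that day overlapped with both, from 2061 to 2867, and differed from 80 mg/kg by -0.29 ± 0.22 (adjusted p = 0.249). The call between the doses is lost after quantile normalization (-0.26, adjusted p = 0.314) and without 30 mg/kg replicate 1 or 2 (adjusted p up to 0.0566).

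In whole liver RNA, fewer cells of a type and less RNA per cell cannot be told apart. Hepatocyte markers had a summed signal of 37497 to 52615 at 80 mg/kg and 47162 to 62476 in control livers on day 15. There 6 of 9 were lower and 1 was higher, beside 59.2% of all genes that passed. After quantile normalization it was 3 and 1, and the list's median was 0.03 where it was -0.38 as deposited. With arrays shifted to a common median 8 were lower and 1 higher, with a median of -0.52. On day 4, when Sqle and Fdps rose, the sums were 50086 to 53527 at 80 mg/kg and 41379.9 to 53841 in control livers, and 0 of 9 passed (limma; 0 with an unadjusted p under 0.05). On day 15 all 6 biliary and progenitor markers measured, of 8 listed, were higher, with sums of 985 to 1474 at 80 mg/kg and 226 to 294 in control livers. Of the 7 macrophage markers measured, of 8 listed, 6 were higher, with sums of 2688 to 3602 at 80 mg/kg and 1482 to 1937 in control livers. On day 4 the biliary sums were 331 to 546 at 80 mg/kg and 172 to 287 in control livers, and 5 of 6 markers were higher. The macrophage sums were 1917 to 2451 at 80 mg/kg and 1433 to 2348 in control livers, and 2 of 7 were higher. These counts stand beside 27.5% of all genes that passed on day 4. No marker had a signal of 0. The part of these cells in the fall of Dhcr7 or the rise of Sqle and Fdps was not tested.

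At 30 mg/kg 0 of 7 members passed in limma's test on day 4, day 8, day 15 or day 24, with 0, 2, 0 and 1 of them at an unadjusted p under 0.05. Of all genes, 0.783%, 0.233%, 4.6% and 0.0932% passed on these days. The differences on day 8 were -0.49 ± 0.20 for Idi1 (adjusted p = 0.327) and -0.33 ± 0.12 for Lss (adjusted p = 0.253), the 2 with an unadjusted p under 0.05, and -0.47 ± 0.24 for Sqle (adjusted p = 0.491). On day 15 Sqle read 321, 309, 302, 216 and 166 at 30 mg/kg, and 3 of these livers lay above every control of that day, but the difference of 0.31 ± 0.24 did not pass (adjusted p = 0.52).

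After 10 days without dosing, Sqle and Fdps lay near control. Sqle averaged 242 ± 72.8 at 80 mg/kg (SD, n = 5) and 192 ± 37.2 in control livers (SD, n = 4), a difference of 0.29 ± 0.26 (adjusted p = 0.504). Fdps averaged 2657 ± 286 at 80 mg/kg (SD, n = 5) and 2730.3 ± 37.5 in control livers (SD, n = 4), a difference of -0.05 ± 0.14 (adjusted p = 0.868). The effect on day 24 minus that on day 15 did not pass for any member, with 1 at an unadjusted p under 0.05, beside 42.7% of all genes. That member was Fdps, at -0.41 ± 0.19 (limma interaction, adjusted p = 0.0731), and for Sqle it was -0.44 ± 0.35 (adjusted p = 0.324). A return to control is therefore described and not shown by a test of the difference between days.

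Dhcr7 lay low at both doses on day 24, on either side of the threshold depending on the processing. The signals were 1392, 1615, 1379 and 1441 in control livers, 1088, 1258, 418 and 1069 at 30 mg/kg, and 1192, 931, 1248, 967 and 1061 at 80 mg/kg. All dosed livers of both groups lay below all 4 controls, as for 1.72% of all genes at 30 mg/kg and 3.79% at 80 mg/kg. The difference from control was -0.44 ± 0.16 at 80 mg/kg (adjusted p = 0.0666) and -0.72 ± 0.17 at 30 mg/kg (adjusted p = 0.0554). At 80 mg/kg it passed with arrays shifted to a common median (-0.69, adjusted p = 0.00235), with array weights and with only the groups compared. At 30 mg/kg it passed after quantile normalization (-0.71, adjusted p = 0.0484), without the 2 arrays of highest actin ratio (-0.83, adjusted p = 0.0496) and without replicate 1, 2 or 4 of that dose (adjusted p as low as 0.0147). The size at 30 mg/kg rests on replicate 3, the array of all 57 with the lowest median correlation with its own group, at 0.965. Without it the difference was -0.36 (adjusted p = 0.463), and with array weights it was -0.49 (adjusted p = 0.226). Between the doses, 0 of 7 members passed in limma's test on day 24, with 0 at an unadjusted p under 0.05, beside 6.77% of all genes. The change of the 30 mg/kg effect also passed for 0 of 7 members from day 4 to day 15 (0 at an unadjusted p under 0.05) and from day 15 to day 24 (2), beside 0.0653% and 1.09% of all genes.

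Control livers themselves varied between days. In a moderated F test of the 4 control groups, 5 of 7 members passed, beside 24.7% of all genes. Sqle averaged 298 ± 86.7 on day 8 and 152 ± 48.5 on day 4, its highest and lowest control days, a ratio of 1.96 (adjusted p = 0.0138). Idi1 averaged 1098 ± 218 on day 8 and 639.6 ± 149 on day 24 (adjusted p = 0.0139), and Cyp51 2391 ± 187 on day 15 and 1795 ± 164 on day 24 (adjusted p = 0.00997). Fdps (adjusted p = 0.0324) and Dhcr7 (adjusted p = 0.04998) were both lowest on day 4, whereas Lss (0.0522) and Insig1 (0.712) did not pass. The spread of Sqle between control days is thus as large as its rise at 80 mg/kg on day 4. In control livers the actin 3'/5' ratio was 3.8 to 5.03 on day 4, 4.37 to 5.64 on day 8, 5.02 to 6.37 on day 15 and 6.04 to 9.76 on day 24. Its part in the differences between days was not tested.

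Over all 12 groups the members had a ratio of highest to lowest group mean between 1.38 for Lss and 2.35 for Sqle. Sqle was highest at 80 mg/kg on day 8, with 80 mg/kg on day 15 next, and lowest in controls on day 4. No neighbours in its order differed by more than their spread. Dhcr7 was highest at 30 mg/kg on day 15, next to control on day 15, and its 3 lowest groups were both doses after the pause and the higher dose on day 15. Of its 11 neighbouring pairs, 9 lay within their spread. Fdps was highest at 80 mg/kg on day 15 and lowest at 30 mg/kg on day 24, and Insig1 was highest at 30 mg/kg on day 15 and lowest at 80 mg/kg on day 15. Idi1 and Lss peaked in controls on day 8, and Cyp51 at 30 mg/kg on day 15.

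From animal to animal the enzymes tended to move together, apart from treatment, with Dhcr7 less close than the others. For each array the deviation of log2 signal from its group's mean was taken, and the members were correlated over the 57 arrays. The 21 pairs had a Pearson r between -0.12 and 0.87 with a median of 0.53, and 19 were above 0. The closest pair was Sqle and Idi1, with r = 0.87 and Spearman's rho = 0.83. Permuting arrays within groups gave p = 1e-05 for both measures, the smallest that the 100000 permutations can give, or 4.2e-05 and 5.25e-05 after Benjamini-Hochberg over the 21 pairs. Without the 2 arrays farthest from the median r was 0.85, and with the actin ratio taken out it was 0.87. Within days it was 0.79, 0.96, 0.62 and 0.96 from day 4 to day 24, and within doses it was 0.91 in control, 0.86 at 30 mg/kg and 0.86 at 80 mg/kg. A liver high in Sqle for its group thus tended to be high in Idi1 too, on each day and at each dose. Sqle and Lss had r = 0.75 (rho = 0.67) and Fdps and Cyp51 r = 0.73 (rho = 0.66), with the same permutation p of 1e-05 by both measures. The pairs of Dhcr7 with Sqle and with Idi1, each at r = 0.36, did not pass by Pearson's r (permutation, adjusted p = 0.132 and 0.124). By Spearman's rho they passed (adjusted p = 0.00282 each). Dhcr7 and Lss, at r = 0.39, passed by neither (adjusted p = 0.0611 and 0.0527). Arrays share their scaling across genes, so part of any such r can be common to the array.

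Insig1 followed this pattern least. Its r with the mean of the other members was 0.17, whereas it was 0.78 for Fdps, 0.76 for Cyp51, 0.71 for Sqle, 0.70 for Lss, 0.68 for Idi1 and 0.57 for Dhcr7. Its lowest pairs, with Sqle and Idi1, had an r of -0.10 and -0.12 (within-group permutation p = 0.613 and 0.512). Its highest, with Dhcr7 and Fdps, had 0.37 and 0.33 (within-group permutation p = 0.108 and 0.0885). Within days its r with Sqle ran from -0.42 on day 8 to 0.63 on day 15. Over all its pairs r lay between -0.42 and 0.01 on day 8 and between 0.24 and 0.75 on day 15. Of the 12 pairs that passed by both measures, none held Insig1.

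**Figure D4:**
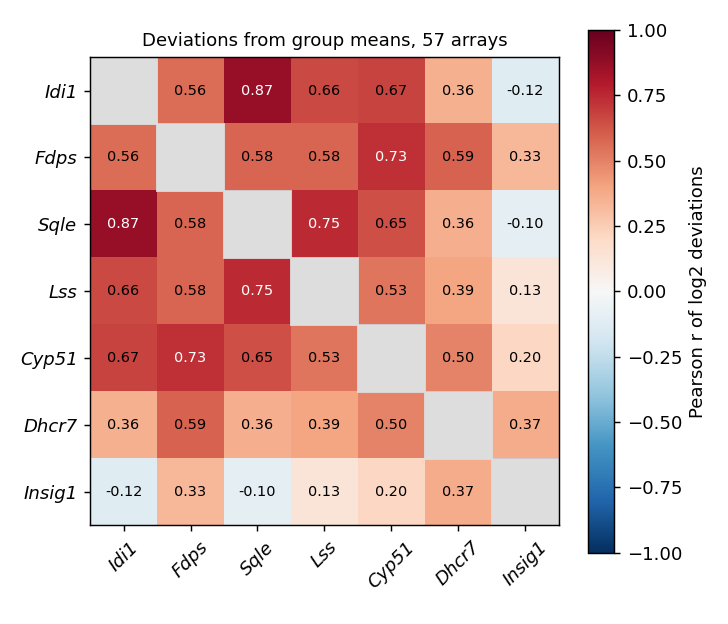
Pearson r between members (both axes) of their log2 deviations from the group mean over 57 arrays, from -1 (blue) to 1 (red), with each value printed. The 6 enzymes have r between 0.36 and 0.87 with each other, and the row of Insig1 lies between -0.12 and 0.37.

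The genes most like the members from animal to animal were in 6 of 8 cases other enzymes of the same pathway. Likeness was the Pearson r, over the 57 arrays, of a gene's deviations with the mean of the members' standardised deviations, and over the 10718 genes that are no member it had a median of -0.02, with 0.25 at the 95th percentile. The 8 highest were Fdft1 (0.80), Msmo1 (0.78), Acat2 (0.76), Hsd17b7 (0.75), Nsdhl (0.64), Mvd (0.61), Acss2 (0.58) and Cetn2 (0.57). Fdft1 is squalene synthase, Msmo1, Nsdhl and Hsd17b7 strip methyl groups from lanosterol in turn, and Acat2 and Mvd act earlier, on either side of mevalonate. Acss2 makes acetyl-CoA from acetate, and Cetn2 encodes a centrin. By Spearman's rho 7 of the same 8 genes led, but over the 12 group means only Acat2 was shared, and Btbd2 (0.89) and Tmem97 (0.88) came first. Of the 13 other enzymes of the pathway measured, Lbr and Ggps1 had r below 0, at -0.16 and -0.13.

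The other enzymes of the pathway changed in both directions at 80 mg/kg. Of 15 further synthesis genes listed, 13 were tested. Over all genes, 27.5%, 50.8%, 59.2% and 10.2% passed at 80 mg/kg from day 4 to day 24. On day 4, 4 were higher and 0 lower: Mvk (mevalonate kinase, 0.64 ± 0.17), Fdft1 (0.60 ± 0.14), Lbr (a sterol reductase of the nuclear membrane, 0.52 ± 0.16) and Mvd (0.41 ± 0.15). Their list's median was 0.38, beside 0.08 over all genes, and 2 were higher with arrays shifted to a common median. On day 8, Lbr (0.86 ± 0.15) and Ggps1 (0.33 ± 0.12), which makes geranylgeranyl diphosphate, were higher. Lower on that day were Hsd17b7 (-0.67 ± 0.18), Tm7sf2 (-0.64 ± 0.15), a second sterol reductase, Ebp (-0.55 ± 0.11), a sterol isomerase, and Nsdhl (-0.43 ± 0.07). After quantile normalization 1 was higher and 4 lower on day 8, and with arrays shifted to a common median 1 and 5. On day 15, 0 were higher and 5 lower, led by Tm7sf2 (-1.13 ± 0.15), Ebp (-0.87 ± 0.11), Nsdhl (-0.51 ± 0.07) and Hsd17b7 (-0.49 ± 0.18), with a median of 0.02 beside 0.16. On day 24, 0 of 13 passed in limma's test, with 2 at an unadjusted p under 0.05, whereas 4 were lower at a common median (list median -0.38). At 30 mg/kg it was 0 on each day, with 3, 3, 2 and 2 from day 4 to day 24.

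The 19 measured enzymes of the pathway, members included, were divided into 8 placed before squalene and 11 from squalene on. Ggps1, which lies on an isoprenoid side branch, was placed among the early ones. This division was made after the values had been seen, and it carries no test. On day 4, 4 of the 8 early genes and 2 of the 11 late ones were higher, and 0 were lower, beside 27.5% of all genes that passed. On day 15, 1 of 8 early genes, Fdps, was higher and 0 lower, whereas of the 11 late genes 1, Sqle, was higher and 6 were lower, Dhcr7 among them. The 7 of 11 late genes that passed stand beside 59.2% of all genes, so their number is near that of the array. The median of the late genes was -0.47 and that of the early genes 0.13 on day 15.

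**Figure D5:**
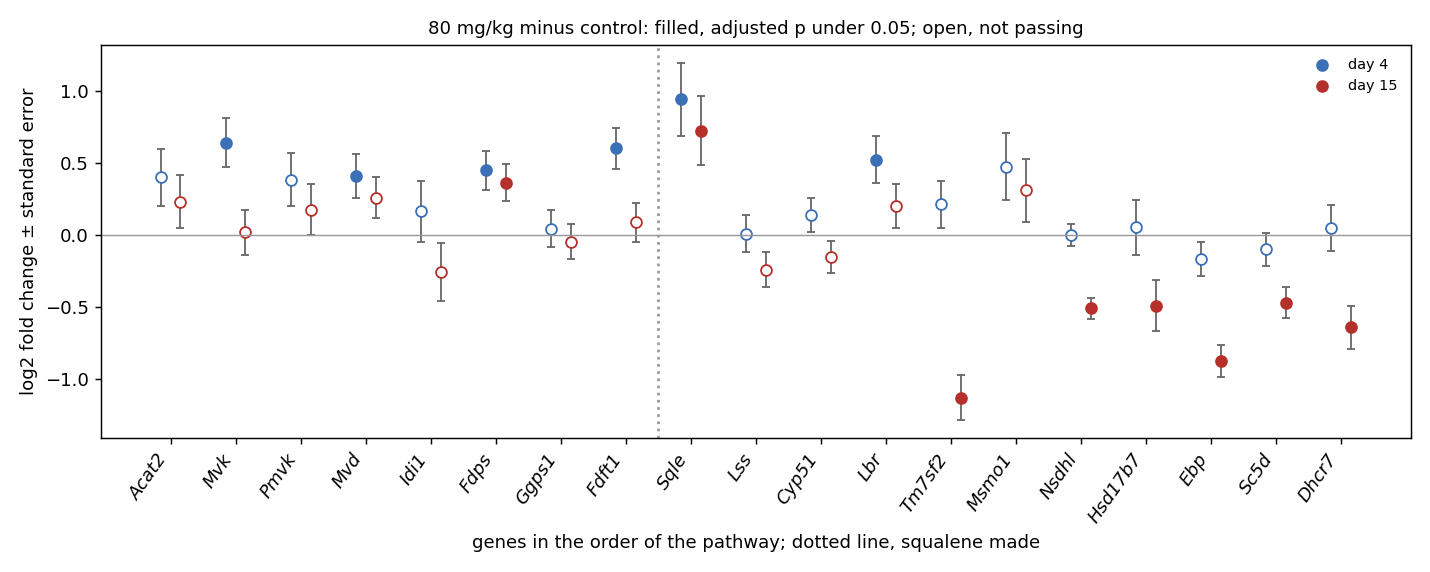
Log2 fold change ± standard error at 80 mg/kg against control on day 4 and day 15 (y axis) for 19 enzymes in the order of the pathway (x axis). Ggps1, of a side branch, is placed between Fdps and Fdft1. A dotted line marks where squalene is made, and filled points have an adjusted p under 0.05. On day 15 Fdps and Sqle are the filled points above 0, and 6 genes right of the line, from Tm7sf2 to Dhcr7, are the filled points below 0.

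Of 11 genes of uptake and sterol release listed, 7 were tested. Their counts at 80 mg/kg stand beside 27.5%, 50.8% and 59.2% of all genes that passed on day 4, day 8 and day 15. On day 4, Lrp1, an endocytic receptor for lipoprotein remnants, was lower (-0.74 ± 0.14) and 0 were higher. On day 15, 3 were lower and 1 higher. Lrp1 had -1.80 ± 0.13 (adjusted p = 8e-17), Stard4, a carrier of sterol between membranes, -1.12 ± 0.15 (adjusted p = 3.66e-09), and Scarb1, the receptor for HDL, -0.56 ± 0.12 (adjusted p = 7.36e-05). Stard3, which moves sterol out of endosomes, had 0.50 ± 0.10 (adjusted p = 3.75e-05). The same genes passed in the same directions on day 8, whereas 0 were higher and 3 lower on that day at a common median. On day 24, 0 of 7 passed in limma's test, with 1 at an unadjusted p under 0.05 and 2 lower at a common median. At 30 mg/kg it was 0 on each day, with 1, 2, 0 and 1 at an unadjusted p under 0.05 from day 4 to day 24.

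Among regulators of the SREBP system, 12 of 13 listed were tested. The share of all genes that passed at 80 mg/kg was 27.5%, 50.8%, 59.2% and 10.2% from day 4 to day 24. At 30 mg/kg on day 15 it was 4.6%. Srebf2, which encodes SREBP-2, had 0.11 ± 0.11 on day 4 (adjusted p = 0.493) and was lower on day 8, at -0.34 ± 0.10 (adjusted p = 0.00518), and on day 15, at -0.41 ± 0.10 (adjusted p = 0.000682). Srebf1, which encodes the SREBP of fatty acid synthesis, was lower too, at -1.02 ± 0.25, -1.25 ± 0.24 and -1.08 ± 0.24 on day 4, day 8 and day 15. Insig2, the sister gene of Insig1, was lower, at -1.03 ± 0.15 on day 8 and -1.04 ± 0.15 on day 15. Insig1 did not pass on these days in the main fit. Mbtps2, the second of the proteases that free SREBP, was higher by 0.81 ± 0.10 on day 8 and 1.07 ± 0.10 on day 15. In all, 2 regulators were higher and 1 lower on day 4, 3 and 5 on day 8, 4 and 5 on day 15, and 1 and 0 on day 24. At a common array median the counts were instead 0 and 1 on day 4, 1 and 6 on day 8, 2 and 5 on day 15, and 0 and 7 on day 24. At 30 mg/kg Erlin1, which takes part in the turnover of sterol sensors, was the 1 that passed, on day 15 (0.26 ± 0.08, adjusted p = 0.0345), and 0 passed with arrays shifted to a common median.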

How the data were processed

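Liver RNA of 57 rats was measured on 57 Rat Genome 230 2.0 arrays. The deposited values are MAS5 intensity signals, per the labels and the submitters' processing notes; its version is not given in the sources used here. The mean signal without the outer 2% at each end was 99.9921 to 99.9924 over the arrays, as left by the authors' scaling. Of 31099 probe sets, 20832 had 1 symbol in the array's annotation, and 20764 of these matched RefSeq GRCr8 by Entrez ID. Log2 signals were kept where the signal was above 17.09 (the overall median) on 4 or more arrays, and a gene was read from its probe set of highest mean, giving 10725 genes. Where a log2 offset was tried it was 3.31. Tests used limma 3.58.1 in R 4.3.3 (lmFit with 12 group means, eBayes with trend, two-sided, Benjamini-Hochberg over all genes, threshold 0.05), with an F test for control days. The steps were tested on simulated data. Figures used matplotlib 3.10.9.

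Members, gene lists and tests were chosen with earlier results of these data known. Named genes are every member, up to 4 passing genes of largest change in each direction per list, Srebf1 and Srebf2, and the 8 genes most like the members. Groups come from sample titles. Alternatives were a common array median, quantile normalization, other filters, an offset, other probe set rules, no trend, array weights, only the groups compared, the actin ratio, the replicate number as a block, and arrays left out.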

Additional observations from a re-analysis of the deposited data

Results flagged for a closer look

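In 5 of 84 groups of a member, 1 array stood far from the others by Dixon's test; chance gives about 1 in 20. They were Sqle in control livers on day 15, where replicate 2 read 298 and the next 194, and Lss in the same array, at 247 with 191 next. Insig1 at 30 mg/kg on day 4 read 4312 in replicate 3, with 2695 next. Dhcr7 in control livers on day 8 read 1325 in replicate 3, with 1758 next. Dhcr7 at 30 mg/kg on day 24 read 418 in replicate 3, with 1069 next.

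The effect of 80 mg/kg on Dhcr7 differed between days, by -0.69 log2 for day 15 minus day 4 (limma interaction, adjusted p = 0.0168).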

How the results depend on the processing

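Of 197 recomputed counts of passing members, 175 stayed within 1.5 times the reported count. Of 1379 recomputed values of single members, 1341 kept their side of the threshold, and their direction where they passed. A value that did not pass could change sign and still be counted among these. Scaling gave many of the others: the median of all genes at 80 mg/kg against control from day 8 to day 24 was 0.15, 0.16 and 0.04 as deposited, -0.07, 0.03 and -0.21 with arrays shifted to a common median, and 0.03, 0.04 and 0.00 after quantile normalization. For 80 mg/kg against control, the count of members became 1 on day 4, 4 on day 8 and 2 on day 24 at a common median, 0 on day 8 after quantile normalization and with the actin ratio as covariate, 1 on day 24 with array weights, and 5 on day 15 and 1 on day 24 when only the groups compared were fitted. For 30 mg/kg against control on day 24 it was 1 after quantile normalization and without the 2 arrays of highest actin ratio (control replicate 4 and 30 mg/kg replicate 4). Between the doses it was 2 on day 4 and 3 on day 8 after quantile normalization, 0 on day 4 at a common median, and 2 on day 8 with only the groups compared. For the 80 mg/kg effect, day 15 minus day 4 became 0 after quantile normalization and with the actin ratio, and 2 with probe sets of a gene averaged; day 24 minus day 15 became 1 after quantile normalization, at a common median, with array weights, with the actin ratio and with only the groups compared. Fits that leave out groups or arrays also hold fewer samples, and the cause of these changes was not tested. Cyp51 between the doses on day 8 had 0.26 after quantile normalization, a reversal of -0.02. Leaving out 1 array gave 1 to 2 members at 80 mg/kg against control on day 4, 0 to 2 on day 8 and 2 to 3 on day 15, 0 to 1 at 30 mg/kg on day 24, 0 to 1 between the doses on day 4 and on day 8 and 1 to 2 on day 15, and 0 to 1 for day 24 minus day 15 at either dose; the counts of the other comparisons did not move.

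With the replicate number as a block the count of passing members was 2, 1, 3 and 0 at 80 mg/kg on day 4, day 8, day 15 and day 24 and 0 at 30 mg/kg on each day, as without the block, and no call changed. The labels do not state that the numbers pair the animals. Over 54 pairs of groups and numbers, deviations of same-numbered arrays correlated between -0.08 and 0.09, and 0 pairs were above 0.1. Such a check over all genes can miss a pairing that moves few of them.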

Other observations

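Neighbouring lipid pathways are described by lists chosen with earlier results known, and 59.2% of all genes passed at 80 mg/kg on day 15, so their counts are no result about a list. Of 14 genes of SREBP-1 fatty acid synthesis tested, 8 were lower and 1 higher on day 15, with a median of -0.77 beside 0.16 over all genes (limma). Scd, the stearoyl-CoA desaturase, had -2.90 ± 0.40, Pklr, a pyruvate kinase, -2.58 ± 0.23, Thrsp, an inducer of fatty acid synthesis, -2.43 ± 0.29 and Elovl5, a fatty acid elongase, -1.18 ± 0.11, whereas the elongase Elovl6 had 1.12 ± 0.33. On day 24, 0 of 14 passed in limma's test, with 3 at an unadjusted p under 0.05, and 4 were lower with arrays shifted to a common median.

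Of 13 genes of sterol efflux, esters and bile acid outlets, 7 were lower and 3 higher on day 15. Abcg5 (-2.39 ± 0.35) and Abcg8 (-2.06 ± 0.43), which together form the sterol exporter into bile, fell, as did the lipase Ces1d (-1.98 ± 0.18) and Lcat (-1.10 ± 0.09), which esterifies cholesterol in plasma. Nceh1, a cholesteryl ester hydrolase, had 2.81 ± 0.29, Soat1, which esterifies cholesterol inside cells, 0.87 ± 0.21, and Cyp7a1, the first enzyme of bile acid synthesis, 0.70 ± 0.28. With arrays shifted to a common median, 2 genes of the list were higher and 8 lower on that day, so not all of these calls held. At 30 mg/kg on day 15, Abcg8 (-1.46 ± 0.43) and Cyp7a1 (0.93 ± 0.28) passed as well, though 0 genes of the list were higher there after quantile normalization or at a common median, so the call of Cyp7a1 is lost under both. Of 11 genes of isoprenoid branches, which use the product of Fdps, 5 were higher and 0 lower on day 15, led by Dhdds (1.44 ± 0.18), Fnta (0.86 ± 0.08), Rabggtb (0.81 ± 0.08) and Fntb (0.73 ± 0.25), enzymes of dolichol synthesis and protein prenylation. Biliary, macrophage and hepatocyte markers moved in the same livers, as given above, and their part was not tested.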
